A study of Homo sapiens with 31 samples.

Results

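The G1/S regulators of the RB pathway were described here as 10 genes, CDKN2A, CDKN2B, RB1, RBL1, CCND1, CCND2, CCND3, CCNE1, CDK4 and CDK6. They were taken by symbol from the table of expression values, so 10 of the 19221 genes used were members, and all 10 were measured in each of the 31 libraries. Entry into S phase is gated by the retinoblastoma protein and its relatives, the pocket proteins, which bind E2F transcription factors and hold back the genes of DNA replication. D-type cyclins activate the kinases CDK4 and CDK6, which begin to phosphorylate the pocket proteins, and cyclin E with CDK2 completes the step. The INK4 inhibitors bind CDK4 and CDK6 and block the step, and many carcinomas carry a lesion somewhere along this path.

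The libraries were poly(A) RNA-sequencing libraries of 2 human cell lines that the study used as models of ovarian cancer. Its authors state that the use of C13* is open to objection given its origin. They also state that A2780 was reported as an unlikely line of high-grade serous ovarian cancer. C13* is a cisplatin-resistant line, and it was studied with a control shRNA (C13* shCON, n = 7) and with a lentiviral shRNA against CEBPB, the gene of the transcription factor C/EBPβ (C13* shCEBPB, n = 8). A2780 was studied as the untreated parent (A2780, n = 8) and as a strain kept in rising amounts of olaparib, an inhibitor of poly(ADP-ribose) polymerase, until its IC50 was at least 30 times that of the parent (A2780 OlaR, n = 8). The comparison of the C13* groups asks what loss of C/EBPβ changes, and that of the A2780 groups what differs after acquired resistance. The study's methods call the resistant cells clones without saying how many there were, and they call the libraries of a group biological replicates without saying whether these were separate cultures, so p-values measure the spread between these libraries. Knockdown and resistance are each 1 line, and a difference between 2 groups cannot be told apart from any other difference between those lines. Levels are in FPKM, fragments normalized to transcript length and library size, and changes are differences of group means of log2(FPKM + 1) with the standard error (SE) of the limma fit. This scale understates the change of low genes. A gene was called at a Benjamini-Hochberg adjusted p under 0.05 over all genes tested.

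The libraries stood apart in a way that the labels do not describe. Over 12967 genes, the mean profile of A2780 OlaR had a Pearson r of 0.993 with that of C13* shCON and of 0.709 with that of its parent A2780, whereas C13* shCON had an r of 0.791 with C13* shCEBPB. KRT5, a keratin of basal epithelium, was at a mean of 1530 FPKM in C13* shCON and 1813 FPKM in A2780 OlaR, at 0.0134 FPKM in C13* shCEBPB and at 0 in every A2780 library. VIM, the intermediate filament of mesenchymal cells, ran the other way, at 9.82, 0.160, 342 and 809 FPKM in the same order of groups. Other mesenchymal markers did not all follow VIM, since CDH2 was at 17.3 FPKM in C13* shCON and 7.56 in C13* shCEBPB, and FN1 was lowest in A2780, at 0.524. The 5 epithelial markers summed to 2312 to 2557 FPKM in C13* shCON, 1262 to 1514 in C13* shCEBPB, 85.1 to 93.3 in A2780 and 2531 to 3042 in A2780 OlaR. Those of C13* shCEBPB went both ways, with KRT8 at 459 and 882 FPKM and KRT18 at 319.8 and 535 in C13* shCON and C13* shCEBPB, while EPCAM was at 111 and 0.567 and KRT19 at 1470.2 and 0.0306. PAX8, a marker of Müllerian epithelium, was at 6.10, 0.536, 0.555 and 6.002 FPKM in C13* shCON, C13* shCEBPB, A2780 and A2780 OlaR. Of the other 4 markers of that list, MUC16, EMX2 and SOX17 were higher in C13* shCEBPB than in C13* shCON, SOX17 at 1.83 FPKM against 0 in every C13* shCON library, and WT1 was lower. PTPRC, a marker of leukocytes, was at 85.9 FPKM in A2780 and at or below 0.0144 FPKM in every library of the other groups. CD68 of the same list was lowest there, at 2.22 FPKM against 65.4, 11.7 and 41.9 in C13* shCON, C13* shCEBPB and A2780 OlaR, and CD3E was listed at 0 in all groups. The likeness of A2780 OlaR to C13* shCON goes against the labelled relation to A2780, the letters in the library codes are not explained by the labels, and whether each library holds the line it is labelled with was not tested. Group names below therefore mean the libraries labelled so. The part of these differences in the results was not tested either. One label of C13* shCON replicate 1 gives the cell line as A2780 while its title gives C13*, and leaving that library out ended none of the member calls. CEBPB itself was at 85.8 ± 9.93 FPKM (SD, n = 7) in C13* shCON and 47.1 ± 9.05 (n = 8) in C13* shCEBPB, a log2 difference of -0.87 ± 0.11 (SE, adjusted p = 1.42e-06), and its libraries did not overlap between the groups. The fall was larger in libraries numbered 1 to 3, where means were 92.9 and 37.8 FPKM, than in libraries 4 to 8, where they were 80.6 and 52.8 (adjusted p for the difference 0.00159). In A2780 and A2780 OlaR it was at 99.7 ± 7.63 and 112 ± 11.6 FPKM (n = 8 each), which overlapped, a log2 difference of 0.16 ± 0.06 (adjusted p = 0.0202).

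Promoter sequences are shown for the INK4 genes, since their members moved apart, and for RBL1, since it was the one member with an E2F motif. Windows of 300 bases, from 250 before to 50 after a start site, were taken from RefSeq (GRCh38.p14) and were at hand for 8 of the 10 members, with none for CCND1 and CCND2. The windows below read 5′ to 3′ on the minus strand, and capitals mark E2F motifs.
CDKN2A upstream start, chr9:21995275-21995574: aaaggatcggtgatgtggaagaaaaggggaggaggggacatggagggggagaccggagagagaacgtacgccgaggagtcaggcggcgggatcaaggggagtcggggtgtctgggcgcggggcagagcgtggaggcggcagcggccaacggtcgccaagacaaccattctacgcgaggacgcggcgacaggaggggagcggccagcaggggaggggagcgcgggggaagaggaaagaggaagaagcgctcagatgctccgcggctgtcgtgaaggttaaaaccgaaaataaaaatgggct
CDKN2A downstream start, chr9:21974808-21975107: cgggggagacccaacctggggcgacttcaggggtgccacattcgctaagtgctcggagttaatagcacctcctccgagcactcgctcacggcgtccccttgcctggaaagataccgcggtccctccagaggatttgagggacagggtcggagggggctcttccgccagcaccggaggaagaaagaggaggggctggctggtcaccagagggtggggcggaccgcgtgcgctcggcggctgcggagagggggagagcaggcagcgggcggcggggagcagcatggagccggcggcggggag
CDKN2B, chr9:22009256-22009555: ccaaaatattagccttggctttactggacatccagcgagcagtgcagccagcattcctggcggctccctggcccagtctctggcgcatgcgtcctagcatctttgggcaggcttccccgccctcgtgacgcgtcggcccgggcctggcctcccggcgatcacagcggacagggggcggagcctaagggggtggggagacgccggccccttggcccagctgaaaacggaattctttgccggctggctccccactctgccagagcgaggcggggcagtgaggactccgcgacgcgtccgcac
RBL1, chr20:37095948-37096247: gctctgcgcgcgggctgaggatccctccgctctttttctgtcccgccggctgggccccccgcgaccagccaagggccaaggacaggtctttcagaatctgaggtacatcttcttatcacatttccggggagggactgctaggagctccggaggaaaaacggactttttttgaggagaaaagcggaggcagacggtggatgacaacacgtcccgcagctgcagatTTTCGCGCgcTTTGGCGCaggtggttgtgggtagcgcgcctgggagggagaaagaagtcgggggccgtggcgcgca
The E2F motif was searched on both strands as TTTGGCGC, TTTCGCGC, TTTCCCGC and TTTGCCGC. In RBL1 it stood at -26 as TTTCGCGC and at -16 as TTTGGCGC, counted in bases from the start site. It was in a window of 3.99% of 27305 genes and of 12 of the 17 matched E2F target genes listed further on, and RBL1 was the only 1 of the 8 matched members with it. The C/EBP motif TTGCNNAA was in a window of 12.7% of genes and the cell cycle motif TTTGAA in one of 18.2%, and neither was in a member's window. The E-box CACGTG was in a window of 8.77% of genes, and among members it occurred 3 times in CDK4 and once in CDK6. For RB1 the window lay at a start inside the gene and not at its first exon. A match is a description of letters and no evidence of binding.

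After C/EBPβ knockdown, all 10 members were called, 5 higher and 5 lower in C13* shCEBPB. Of 12006 genes tested in this comparison, 84.7% were called, 38.9% higher and 45.7% lower, so a member being called is close to the background. For 8 of the 10 members the ranges of the 2 groups did not overlap, against 66.0% of genes tested. A change of at least 2-fold was reached by 6 members, 4 higher and 2 lower, against 29.5% of genes tested, 12.7% higher and 16.7% lower. The median absolute log2 change was 1.24 over the members and 0.57 over all genes tested. CDKN2B, CCND3, CCNE1, CDK4 and CDK6 were higher, and CDKN2A, RB1, RBL1, CCND1 and CCND2 lower.

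Between A2780 OlaR and A2780, 8 of the 10 members were called, 6 higher and 2 lower in A2780 OlaR. Here 89.8% of 12458 genes tested were called, 40.1% higher and 49.7% lower. The groups did not overlap for 6 members, against 74.1% of genes tested, and 5 members changed at least 2-fold, 4 higher and 1 lower, against 35.7% of genes tested, 15.5% higher and 20.1% lower. The median change was 0.48 over the members and -0.12 over all genes tested. Read against that shift of all genes, each member's log2 change in this comparison is 0.12 larger than the value given. In both comparisons CCND2 passed the filter on low values only through the group where it is high, so it had to differ. It is among the members counted above as called, as not overlapping and as changed at least 2-fold, and the medians include it. Without it, 9 of 9 and 7 of 9 members were called.

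**Figure D1:**
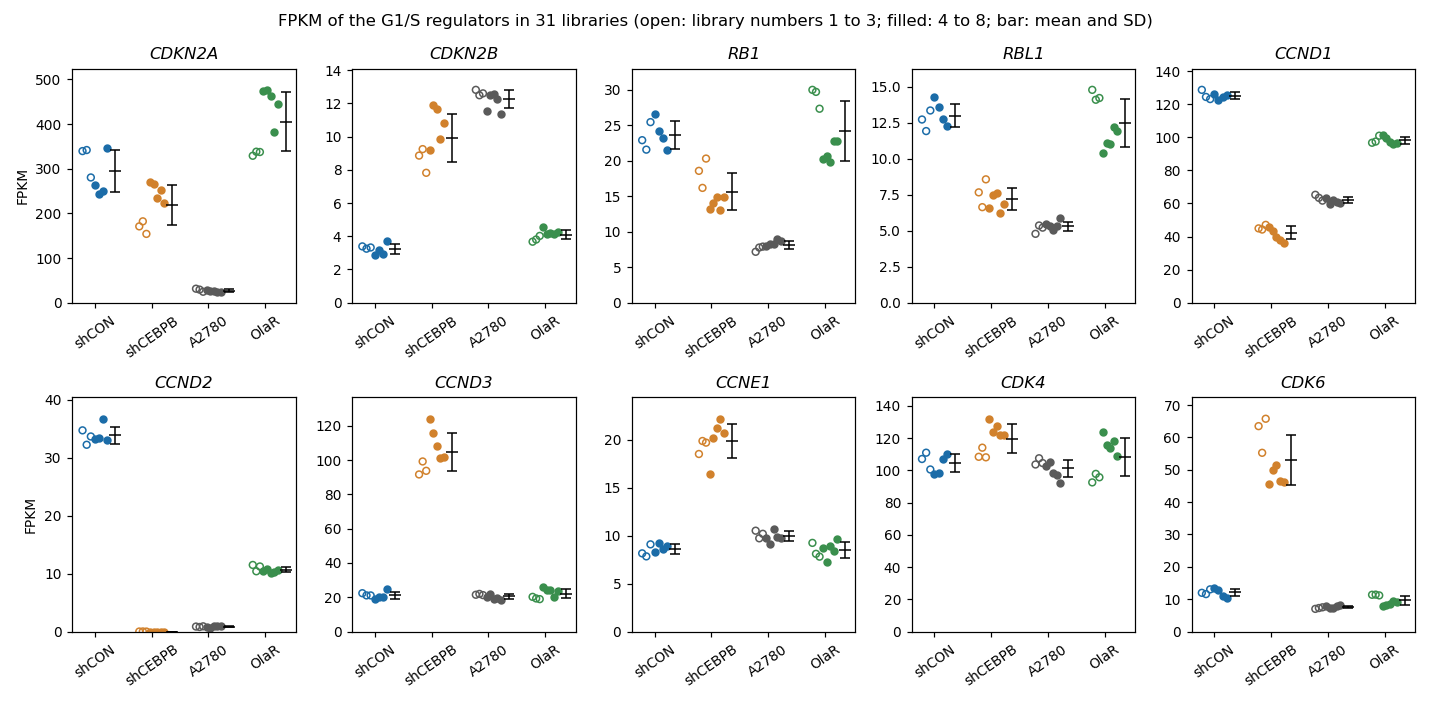
FPKM (y axis, linear, from 0) of the 10 G1/S regulators in C13* shCON (n = 7), C13* shCEBPB, A2780 and A2780 OlaR (n = 8 each), 1 point per library, with the mean and SD as a bar. CDKN2A is near 27 FPKM in A2780 and above 154 in all other libraries, CCND2 is near 0 in C13* shCEBPB, and CCND3 and CDK6 are highest in C13* shCEBPB.

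**Figure D2:**
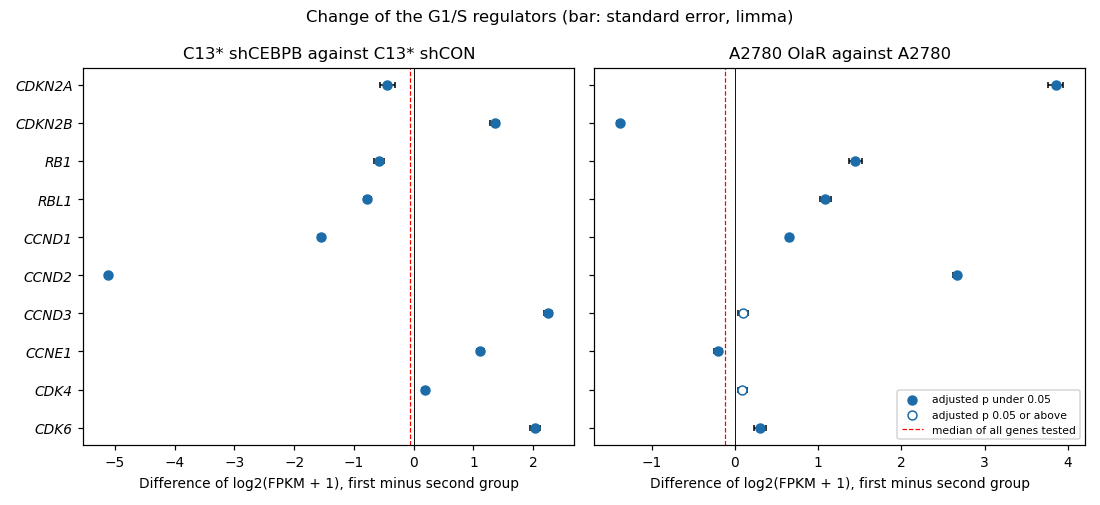
Difference of mean log2(FPKM + 1) (x axis) with its standard error for each member, C13* shCEBPB minus C13* shCON on the left and A2780 OlaR minus A2780 on the right. Filled points have an adjusted p under 0.05, and the dashed line is the median of all genes tested, -0.07 on the left and -0.12 on the right.

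CDKN2A, on chromosome 9 at 21967752 to 21995301 (hg38, minus strand), encodes p16INK4A, which blocks CDK4 and CDK6, and from another first exon p14ARF, which stabilizes p53. The row of the table holds both transcripts, which cannot be told apart here. In A2780 its level ran from 24.5 to 31.3 FPKM (median 25.4), and in A2780 OlaR from 329 to 477 FPKM (median 413). All 8 resistant libraries lay above all 8 parental ones, and the group means differed 15.1-fold, by 3.85 ± 0.09 on the log2 scale (adjusted p = 4.79e-19), a change exceeded in size by 3.03% of genes tested. The exact permutation test gave p = 0.000155, the smallest that 8 against 8 libraries allow.

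The C13* groups differed less in CDKN2A. C13* shCON ran from 243 to 346 FPKM (median 280.4) and C13* shCEBPB from 154 to 270.5 (median 228), and the libraries overlapped. The log2 change was -0.44 ± 0.13 (adjusted p = 0.00396, exact permutation p = 0.00979). It differed between the libraries whose code carries a number of 1 to 3 and those of 4 to 8, being -0.92 in the first (adjusted p = 1.05e-05) and -0.13 in the second (adjusted p = 0.204), with an adjusted p for the difference of 0.00105. In 1 fit of all groups the order was A2780 OlaR, C13* shCON, C13* shCEBPB and A2780, and each neighbouring pair differed (adjusted p = 0.00188, 0.000801 and 2.46e-22), although only A2780 did not overlap with its neighbour. Nearly all pairs of groups differed widely in that fit. Called genes made up 88.0% between A2780 and C13* shCEBPB, 87.6% between A2780 and C13* shCON, 88.0% between A2780 OlaR and A2780, 84.8% between A2780 OlaR and C13* shCEBPB and 84.3% between the C13* groups, but 37.7% between A2780 OlaR and C13* shCON.

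CDKN2B, beside CDKN2A at 22002903 to 22009305, encodes p15INK4B, an inhibitor of the same kinases that TGF-β can induce. It moved against CDKN2A in both comparisons. Levels ran from 2.87 to 3.69 FPKM (median 3.25) in C13* shCON and from 7.82 to 11.9 (median 9.54) in C13* shCEBPB, without overlap, a log2 change of 1.36 ± 0.08 (adjusted p = 9.01e-12). In A2780 they ran from 11.4 to 12.8 FPKM (median 12.5) and in A2780 OlaR from 3.67 to 4.55 (median 4.14), again without overlap, a log2 change of -1.38 ± 0.04 (adjusted p = 2.59e-17). A2780 thus had the lowest CDKN2A and the highest CDKN2B. As a share of the summed FPKM of both genes, CDKN2A was 68.5% ± 2.17 (SD, n = 8) in A2780 and 99.0% ± 0.116 (n = 8) in A2780 OlaR, and it was 98.9% ± 0.117 (n = 7) in C13* shCON and 95.6% ± 0.599 (n = 8) in C13* shCEBPB. The annotated exons of both genes hold a shared run of 80 bases, so reads within it could have been split between them.

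Their neighbour MTAP, the methylthioadenosine phosphorylase gene on the other side of CDKN2A that is often deleted along with it, was measured in every group and fell in both comparisons. Its log2 change was -1.23 ± 0.06 after knockdown and -0.39 ± 0.04 in A2780 OlaR. Within the other inhibitors, CDKN1A, the p53 target p21, had the largest fall after knockdown, from 171 to 13.2 FPKM (log2 change -3.64 ± 0.14), and rose from 13.8 to 117 FPKM in A2780 OlaR (2.998 ± 0.05). CDKN1C, encoding p57, moved the other way, with changes of 3.97 ± 0.11 and -1.86 ± 0.07, and so did CDKN1B, encoding p27, with 1.42 ± 0.06 and -1.43 ± 0.04. CDKN2C, encoding p18INK4C, rose from 10.4 to 71.7 FPKM after knockdown (2.67 ± 0.10). Of the 7 INK4 and CIP/KIP genes, 4 rose and 3 fell after knockdown, with a median change of 1.36, and 3 rose and 4 fell in A2780 OlaR, with a median of -0.50. These counts are near the shares over all genes tested, 38.9% higher and 45.7% lower after knockdown and 40.1% and 49.7% in the other comparison.

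RB1, at 48303744 to 48599436 on chromosome 13 (plus strand), encodes the retinoblastoma protein, the main restraint on the activating E2F factors. It was detected in every group. In A2780 it ran from 7.16 to 8.90 FPKM (median 8.12) and in A2780 OlaR from 19.9 to 30.0 (median 22.8). No resistant library overlapped with a parental one, and the log2 change was 1.45 ± 0.08 (adjusted p = 1.80e-12). After knockdown it went from 21.5 to 26.6 FPKM (median 23.2) in C13* shCON to 13.1 to 20.3 (median 14.9) in C13* shCEBPB, a log2 change of -0.58 ± 0.09 (adjusted p = 5.58e-06). The 2 ranges did not overlap either, and the fall was -0.33 on the log2 scale once the libraries were corrected for GC content and transcript length. A2780 OlaR and C13* shCON, the highest groups, did not differ in RB1 beyond their spread (log2 difference 0.02 ± 0.09, adjusted p = 0.915).

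RBL1, at 36996349 to 37095997 on chromosome 20 (minus strand), encodes p107, a pocket protein that binds the repressive E2F4 and E2F5 and is itself a classical E2F target. It followed RB1 at a lower level. Levels were 11.9 to 14.3 FPKM (median 12.8) in C13* shCON and 6.20 to 8.57 (median 7.19) in C13* shCEBPB, without overlap (log2 change -0.77 ± 0.06, adjusted p = 1.06e-09). They were 4.78 to 5.86 FPKM (median 5.35) in A2780 and 10.4 to 14.8 (median 12.0) in A2780 OlaR, also without overlap (1.09 ± 0.06, adjusted p = 3.88e-12). C13* shCON and A2780 OlaR did not differ beyond their spread (adjusted p = 0.486), and C13* shCEBPB lay above A2780 (adjusted p = 1.40e-06). RBL1 was 31.7% ± 2.23 (n = 8) of the summed FPKM of RB1 and RBL1 in C13* shCEBPB and 39.5% ± 1.14 (n = 8) in A2780, with the other groups in between. RBL2, the third pocket protein gene and encoding p130 of quiescent cells, went the same way, from 50.4 to 18.2 FPKM after knockdown and from 13.6 to 50.002 in A2780 OlaR. All 3 pocket protein genes thus fell after knockdown and rose in A2780 OlaR, with median changes of -0.77 and 1.45. Of all genes tested, 45.7% were called lower after knockdown and 40.1% higher in A2780 OlaR. Among genes called in both comparisons, 65.0% had opposite directions.

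Genes around RB1 and RBL1 were called mostly in the direction of the member. Within 300 kb of RB1, 5 genes besides it were tested, and in A2780 OlaR all 5 rose, with a median change of 1.17, where 40.1% of all genes tested were called higher. Among those that rose at least 2-fold were SUCLA2, ITM2B and RCBTB2, by 1.05, 1.36 and 1.17 on the log2 scale. After knockdown 4 of the 5 fell and 1 rose, and ITM2B fell by 1.54. Around RBL1, 6 of 7 tested neighbours rose in A2780 OlaR and 6 of 7 fell after knockdown. Over all genes tested, 40.1% were called higher in A2780 OlaR, and 45.7% were called lower after knockdown. Among these neighbours of RBL1 were DSN1, a kinetochore gene (2.14 and -1.12), and SRC, the proto-oncogene kinase (1.52 and -1.88). Neighbours of other members did not all follow the member. Around CDK4, 3 of 19 tested neighbours rose and 14 fell in A2780 OlaR, against 40.1% and 49.7% of all genes tested. Among the 14, INHBE, GLI1, KIF5A and AVIL passed the filter only through A2780 and had to differ. Around CCND2, 1 of 4 rose and 3 fell there while CCND2 rose. Around CCND3, 5 of 13 rose and 7 fell after knockdown, near the 38.9% and 45.7% of all genes tested. Among the 7, C6orf132 and GUCA1B passed the filter only through C13* shCON and had to differ. Copy number was not measured here.

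CCND1, at 69641156 to 69654474 on chromosome 11 (plus strand), encodes cyclin D1, the D-type cyclin most often overexpressed in carcinomas. In C13* shCON it held a narrow range of 122 to 129 FPKM (median 125), and in C13* shCEBPB it was at 36.1 to 47.0 FPKM (median 43.7). The groups were far apart, with a 2.95-fold higher mean in C13* shCON and a log2 change of -1.55 ± 0.05 (adjusted p = 5.35e-15). In A2780 it ran from 59.9 to 65.2 FPKM (median 61.9) and in A2780 OlaR from 95.8 to 101 FPKM (median 97.2), without overlap, a log2 change of 0.65 ± 0.03 (adjusted p = 7.34e-15). Its 4 groups did not overlap with each other, in the order C13* shCON, A2780 OlaR, A2780 and C13* shCEBPB. MYEOV, which lies on the centromeric side of CCND1 and is co-amplified with it in some tumours, changed by -4.15 after knockdown and 2.88 in A2780 OlaR. It was at 0.829 FPKM in C13* shCEBPB and so had passed the filter through C13* shCON. FGF19, the other neighbour tested, went against CCND1 in A2780 OlaR, with a change of -0.79 ± 0.06.

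CCND2, at 4269771 to 4305353 on chromosome 12 (plus strand), encodes cyclin D2. It was the member with the widest range. C13* shCON held 32.2 to 36.7 FPKM (median 33.4), while 6 of the 8 C13* shCEBPB libraries were listed at 0 and the highest was at 0.0174 FPKM. The fitted log2 change of -5.12 ± 0.04 is limited by the pseudocount of 1 and is no measure of the fold (adjusted p = 1.79e-24). A2780 was at 0.630 to 0.967 FPKM (median 0.885) and A2780 OlaR at 10.2 to 11.5 (median 10.6), a 12.6-fold higher mean and a log2 change of 2.67 ± 0.04 (adjusted p = 3.07e-21). In each comparison CCND2 passed the filter only through the group where it is high, so it had to differ and these p-values are no evidence. C13* shCON lay above A2780 OlaR by 1.58 ± 0.04 (adjusted p = 2.71e-25), and their libraries did not overlap.

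CCND3, at 41934934 to 42050357 on chromosome 6 (minus strand), encodes cyclin D3. Its rise after knockdown set C13* shCEBPB apart from the other 3 groups. C13* shCON was at 18.9 to 24.8 FPKM (median 21.1) and C13* shCEBPB at 91.6 to 124 (median 101), a 4.93-fold higher mean (log2 change 2.25 ± 0.07, adjusted p = 8.30e-16). A2780 at 18.5 to 22.02 FPKM (median 20.7) and A2780 OlaR at 18.9 to 25.9 (median 21.9) overlapped, and the log2 difference of 0.10 ± 0.06 was not called (adjusted p = 0.157, exact permutation p = 0.171). That value averaged opposite changes, -0.14 among libraries 1 to 3 (adjusted p = 0.00725) and 0.24 among libraries 4 to 8 (adjusted p = 0.00208), with an adjusted p for the difference of 0.00160. A2780 OlaR, C13* shCON and A2780 were neighbours in the order of levels that did not differ beyond their spread (adjusted p = 0.577 and 0.550). Of its tested neighbours, TFEB, encoding a regulator of lysosomal genes, also rose after knockdown, by 2.23, while MDFI fell by 3.30, and C6orf132, which passed the filter only through C13* shCON, fell by 2.80.

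The D-type cyclins together made up 180.1 ± 3.54 FPKM (SD, n = 7) in C13* shCON, 147 ± 11.8 in C13* shCEBPB, 83.4 ± 2.55 in A2780 and 131 ± 3.87 in A2780 OlaR (n = 8 each). CCND1 made up 69.4% ± 0.754 of that sum in C13* shCON, 74.4% ± 1.12 in A2780 and 75.0% ± 1.38 in A2780 OlaR. In C13* shCEBPB it was 28.9% ± 2.97, and CCND3 was 71.1% ± 2.98, against 11.8% ± 0.930 in C13* shCON. The leading D-type cyclin mRNA was thus CCND3 in C13* shCEBPB and CCND1 in the 3 other groups. CCND2 was 18.8% ± 0.744 in C13* shCON, 8.17% ± 0.424 in A2780 OlaR and 1.02% ± 0.163 in A2780. FPKM is per length of transcript, so these sums compare mRNA levels and not proteins.

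**Figure D3:**
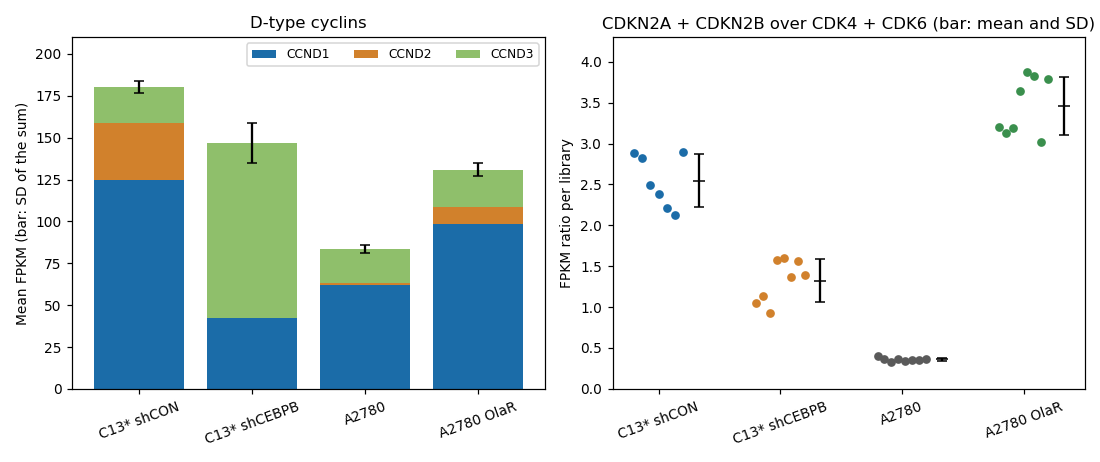
Left, stacked mean FPKM of CCND1, CCND2 and CCND3 in each group, with the SD of their sum. Right, summed FPKM of CDKN2A and CDKN2B divided by that of CDK4 and CDK6, 1 point per library, with the mean and SD. CCND3 makes up most of the bar of C13* shCEBPB only, and the ratio is under 0.40 in all A2780 libraries and above 3.0 in all A2780 OlaR libraries.

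CCNE1, at 29811991 to 29824312 on chromosome 19 (plus strand), encodes cyclin E1, the partner of CDK2 and a gene amplified in some high-grade serous ovarian carcinomas. It was at 7.83 to 9.23 FPKM (median 8.57) in C13* shCON and at 16.4 to 22.2 (median 20.01) in C13* shCEBPB. These ranges did not meet, and the log2 change was 1.12 ± 0.06 (adjusted p = 2.39e-12). A2780 at 9.15 to 10.7 FPKM (median 9.81) and A2780 OlaR at 7.26 to 9.66 (median 8.51) overlapped, with a log2 change of -0.21 ± 0.05 (adjusted p = 0.000670, exact permutation p = 0.000777). Relative to the median of all genes this change was -0.09, and after quantile normalization it was -0.08 and not called (adjusted p = 0.126). C13* shCON and A2780 OlaR did not differ beyond their spread (adjusted p = 0.878). CCNE2, which encodes cyclin E2, rose in A2780 OlaR from 1.96 to 11.2 FPKM (log2 change 2.04 ± 0.08), and after knockdown it went from 10.7 to 9.50 FPKM (-0.17 ± 0.06). CDK2, the kinase of both, rose in each comparison, by 0.53 ± 0.03 and 1.24 ± 0.03.

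CDK4, at 57747727 to 57756013 on chromosome 12 (minus strand), encodes the main partner kinase of cyclin D1 and had log2 changes of 0.19 and 0.09 in both comparisons. It ran from 97.7 to 111 FPKM (median 107) in C13* shCON and from 108 to 132 (median 122) in C13* shCEBPB, and these overlapped, with a log2 change of 0.19 ± 0.05 (adjusted p = 0.00182, exact permutation p = 0.00326). Quantile normalization left 0.05 (adjusted p = 0.234), and libraries 1 to 3 alone also gave 0.05 (adjusted p = 0.397). It was at 91.8 to 107 FPKM (median 103) in A2780 and at 92.5 to 123 (median 111) in A2780 OlaR, and the difference of 0.09 ± 0.06 was not called (adjusted p = 0.143, exact permutation p = 0.159). It was -0.14 among libraries 1 to 3 and 0.23 among libraries 4 to 8, each called on its own, with an adjusted p for the difference of 0.000121. Over all groups, A2780 OlaR, C13* shCON and A2780 did not differ beyond their spread (adjusted p = 0.563 and 0.446). On the opposite strand, exons of TSPAN31, a tetraspanin gene, cover 44.2% of the annotated exonic bases of CDK4. TSPAN31 rose from 2.76 to 14.1 FPKM in A2780 OlaR (log2 change 2.02), and whether counting used strand is not stated, so reads of the shared 1369 bases cannot be told apart.

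CDK6, at 92604921 to 92836573 on chromosome 7 (minus strand), encodes the second kinase of the D-type cyclins. In C13* shCON it was at 10.4 to 13.6 FPKM (median 12.0) and in C13* shCEBPB at 45.7 to 65.8 (median 50.7), a 4.39-fold higher mean without overlap (log2 change 2.04 ± 0.08, adjusted p = 7.29e-14). It shared with CCND3 the pattern of being highest in C13* shCEBPB. A2780 at 7.01 to 8.18 FPKM (median 7.44) and A2780 OlaR at 7.82 to 11.4 (median 9.28) overlapped, with a log2 change of 0.31 ± 0.07 (adjusted p = 0.000499, exact permutation p = 0.000622). That change was 0.58 among libraries 1 to 3, 0.14 among libraries 4 to 8 and 0.56 after correction for GC content and transcript length. CDK6 made up 10.4% ± 1.37 (n = 7) of the summed FPKM of both kinases in C13* shCON, 30.7% ± 4.56 in C13* shCEBPB, 6.95% ± 0.652 in A2780 and 8.31% ± 1.99 in A2780 OlaR (n = 8 each).

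The mRNA of the INK4 members was set against kinase mRNA as the summed FPKM of CDKN2A and CDKN2B divided by that of CDK4 and CDK6. The other INK4 genes were left out, of which CDKN2C rose from 10.4 to 71.7 FPKM after knockdown and CDKN2D fell from 8.31 to 2.56. Most of the sum is CDKN2A, whose row also holds the transcript of p14ARF. This ratio was 2.55 ± 0.321 (SD, n = 7) in C13* shCON and 1.32 ± 0.259 (n = 8) in C13* shCEBPB. In A2780 it was 0.360 ± 0.0203 and in A2780 OlaR 3.46 ± 0.355 (n = 8 each). The ranges of the groups did not overlap within either comparison, since the lowest C13* shCON library was at 2.13 and the highest C13* shCEBPB library at 1.60.

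The comparisons share no libraries, but A2780 OlaR in one and C13* shCON in the other had mean profiles with an r of 0.993. Most members went in opposite directions in the 2 comparisons, and the part of that likeness in this was not tested. CDKN2A, RB1, RBL1, CCND1 and CCND2 fell after knockdown and rose in A2780 OlaR, and CDKN2B and CCNE1 did the reverse. CDK6 rose in both. CCND2 had to differ in each. Of the 7 other members called in both comparisons, 6 thus had opposite directions, and of the 8779 genes called in both, 65.0% did. The 6 include CCNE1, not called in A2780 OlaR with quantile normalization, and CDKN2A, not called after knockdown in libraries 4 to 8. Between A2780 OlaR and C13* shCON, where 37.7% of 12967 genes were called in the fit of all groups, 5 of the 10 members were called. CDKN2A was higher in A2780 OlaR by 0.46 ± 0.11 and CDKN2B by 0.27 ± 0.06, whereas CCND1, CCND2 and CDK6 differed by -0.35 ± 0.04, -1.58 ± 0.04 and -0.31 ± 0.08 on the log2 scale.

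Downstream of the pathway, 20 E2F target genes of the G1/S wave were looked at, among them genes of the replicative helicase, its loading factors and nucleotide supply. Their mRNA is no measure of E2F activity, and the cell cycle state of these libraries was not measured. The study's own cell cycle analysis, under olaparib exposure, found subtle changes between A2780 and A2780 OlaR. In A2780 OlaR all 20 rose, with a median log2 change of 2.24, where 40.1% of genes tested were called higher. MCM4, a helicase subunit, went from 12.2 ± 0.672 to 139 ± 8.93 FPKM (SD, n = 8 each; log2 change 3.41 ± 0.04). GINS2, a subunit of the GINS complex, rose by 2.97 ± 0.04, TK1, the thymidine kinase of S phase, by 2.74 ± 0.08, and CDC45, the helicase cofactor, by 2.71 ± 0.03. All 20 also rose among libraries 1 to 3 and among libraries 4 to 8, and with quantile normalization. High levels were not particular to A2780 OlaR, since MCM4 was at 130 FPKM in C13* shCON and 96.3 in C13* shCEBPB. A2780 had the lowest mean of the 4 groups for each target but GINS1, which was at 15.1 FPKM in C13* shCEBPB and 21.3 in A2780. After knockdown 8 of the 20 rose and 10 fell, with a median of -0.12, close to the 38.9% and 45.7% of all genes tested and their median of -0.07. GINS1 (-1.57 ± 0.05) and RRM2, a subunit of ribonucleotide reductase (-0.75 ± 0.04), had the largest falls, and POLA1, the catalytic subunit of polymerase α (1.23 ± 0.06), and UHRF1 (0.95 ± 0.07) the largest rises. A2780 OlaR had more CDKN2A, RB1 and RBL1 mRNA, which encode restraints, together with more mRNA of E2F targets. Other restraints went the other way, since 4 of the 7 INK4 and CIP/KIP genes fell there and 3 rose. Among those that fell were CDKN2B (-1.38), CDKN1B (-1.43) and CDKN1C (-1.86).

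**Figure D4:**
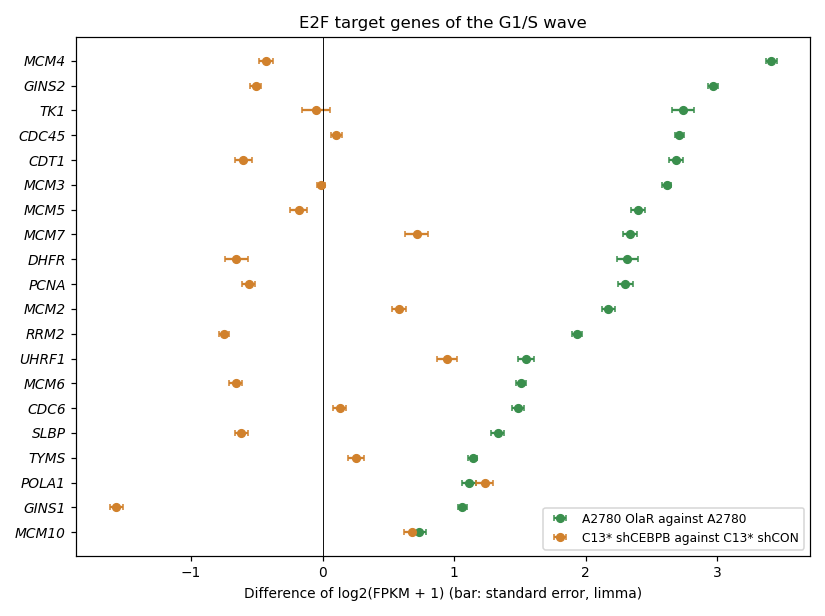
Difference of mean log2(FPKM + 1) (x axis) with its standard error for 20 E2F target genes, A2780 OlaR minus A2780 and C13* shCEBPB minus C13* shCON. All 20 lie to the right of 0 in A2780 OlaR, while after knockdown 8 were called higher and 10 lower.

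The factors that act on these targets were split. Of the 10 E2F and DP genes, 5 rose and 5 fell in A2780 OlaR. The counts of this list and of those that follow stand beside 40.1% higher and 49.7% lower over all genes tested in that comparison and 38.9% and 45.7% after knockdown. TFDP1, encoding the common dimer partner, rose from 16.1 to 78.7 FPKM (2.22 ± 0.04) and E2F1, the best known activator, from 9.67 to 34.3 (1.72 ± 0.08), while E2F5, a partner of p107 and p130, went from 15.8 to 5.08 (-1.47 ± 0.05) and E2F3 from 13.8 to 5.10 (-1.28 ± 0.05). After knockdown 6 rose and 3 fell, and E2F1 was not called (0.08 ± 0.11, adjusted p = 0.494). E2F3 (1.42 ± 0.07) and E2F2 (1.06 ± 0.05) rose, and E2F8, an atypical repressor (-1.36 ± 0.08), fell. Of the 11 cyclins, CDKs and CDC25A, the members included, 6 rose and 4 fell after knockdown, and 7 rose and 2 fell in A2780 OlaR. Of the 6 MuvB and DREAM subunits, 1 rose and 2 fell after knockdown, with MYBL2 (0.65 ± 0.04) the riser, and 2 rose and 3 fell in A2780 OlaR, where LIN54, the DNA-binding subunit, fell by 1.68. Among 8 genes of turnover and repression, 7 were tested after knockdown, of which 3 rose and 3 fell, with falls of FBXW7, the ubiquitin ligase adaptor of cyclin E (-1.62 ± 0.07), and CBX7 (-1.50 ± 0.09). In A2780 OlaR 3 of the 8 rose and 5 fell, with a rise of SKP2, the adaptor that targets p27 (1.39 ± 0.04), while BMI1, a Polycomb repressor of CDKN2A at 3.89 FPKM in A2780 and 0.290 in A2780 OlaR (-1.92 ± 0.06), passed the filter only through A2780 and had to differ.

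Within groups, libraries differed in how their values followed the GC content of genes. The trend of each library was taken relative to its group. In A2780 OlaR this trend was -0.126 to -0.119 log2 units per 10 percentage points of GC in libraries 1 to 3 and 0.00329 to 0.122 in libraries 4 to 8. In C13* shCEBPB it was -0.210 to -0.0721 and 0.0622 to 0.113. The other groups did not share this split, since A2780 ran the other way, at 0.0392 to 0.0892 and -0.118 to 0.0139, and C13* shCON overlapped, at -0.0244 to 0.0474 and -0.0918 to 0.0619. The GC-rich CDKN2A (58.3% GC) was lower and the GC-poor RB1 (37.1%) higher where the trend was low. In A2780 OlaR, libraries 1 to 3 held 329 to 338 FPKM of CDKN2A and 27.3 to 30.0 of RB1, and libraries 4 to 8 held 381 to 477 and 19.9 to 22.8. In C13* shCEBPB they held 154 to 182 FPKM of CDKN2A and 16.2 to 20.3 of RB1, against 222 to 270.5 and 13.1 to 14.9. A correction of every library for GC content and transcript length, added once the values had been seen, left the number of members called at 10 after knockdown and 8 in A2780 OlaR, and the CDKN2A change was -0.46 (adjusted p = 1.40e-05) and 3.80. The change differed between libraries 1 to 3 and 4 to 8 for 5 of 10 members after knockdown and 7 of 10 in A2780 OlaR, against 47.5% and 60.7% of genes tested.

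The genes most like each member over the 31 libraries were sought among 12280 genes with a mean of at least 1 FPKM, by Pearson's r of log2(FPKM + 1). All libraries fall into the same 4 groups, so a high r says mainly that the group means follow the same order. CCND2 was most like PTHLH (r = 0.997), which encodes parathyroid hormone-like hormone and was at 35.01, 0.332, 1.38 and 13.03 FPKM in C13* shCON, C13* shCEBPB, A2780 and A2780 OlaR. For RB1 the second gene was CENPJ (r = 0.992), and RBL1 was most like ARFGEF2 (r = 0.994) and FZD6 (r = 0.992). CCND3 was most like SCARA3 (r = 0.995) and CLUH (r = 0.994), and CDK6 like KPNA1 (r = 0.994) and FSTL1 (r = 0.992). CDKN2B was most like SSBP3 (r = 0.991) and FGFR1 (r = 0.990), CCND1 like FEZ1 and MAPKBP1 (both r = 0.987), and CCNE1 like BACE2 (r = 0.982) and TMEM248 (r = 0.981). For CDKN2A the second gene was SORCS2 (r = 0.995), and the first had a symbol that a spreadsheet had turned into a date and is not named. CDK4 had the weakest likeness, with RAB40C (r = 0.925) and ENDOG (r = 0.921).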

How the data were processed

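Poly(A) RNA of 31 cell line libraries in 4 labelled groups was sequenced. The authors mapped reads to hg38 with TopHat and counted them with HTSeq (FastQC and edgeR are also named in the submitters' processing notes) and deposited FPKM for 19225 genes. The tool, annotation and strand setting behind the FPKM are not given in the sources used here. After 4 entries of repeated symbols were left out, 19221 genes remained.

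Each comparison was fitted on its own 2 groups with limma 3.58.1 (R 4.3.3, eBayes with trend, two-sided) on log2(FPKM + 1), over genes with FPKM of at least 1 in 7 libraries (knockdown) or 8 (resistance), with Benjamini-Hochberg adjustment. This replaced the count test of the study, since FPKM are not counts. Members also got a two-sided exact permutation test, and the order of groups 1 limma fit of all libraries. Library numbers are those of the library codes, and the test of their 2 ranges (an interaction term) was added after seeing the data. Simulated data with 200 changed genes gave back 196 (knockdown) and 197 (resistance). Libraries of the same replicate number did not deviate together (mean r of -0.15 over 7 pairs and -0.23 over 8), so no block was used. Replicates 6 and 7 of C13* shCON carry the library numbers 7 and 8, so their pairs join different library numbers. Absolute depth is unknown, and whole steps among low values gave relative depths of 0.865 to 1.23. Positions are from GENCODE (hg38).

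Members, lists and tests were chosen with earlier results of these data known. Named were the members, CEBPB, at most 4 genes of each list with the largest called changes, the 2 genes most like each member, and neighbours within 300 kb that changed at least 2-fold. Some genes that this rule names are not reported here. Cell type markers came from a separate list. Alternatives were a pseudocount of 0.1, no filter or FPKM 5 as filter, rescaling to a common sum, quantile normalization, all groups in 1 fit, the replicate block, each range of library numbers, a rank test, leaving out C13* shCON replicate 1, and a correction for GC content and transcript length that was added after seeing the data.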

Additional observations from a re-analysis of the deposited data

Results flagged for a closer look

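CCND2 in C13* shCEBPB replicate 2 stood apart from the rest of its group, at 0.0174 FPKM, where the next library was at 0.00743 and 6 of 8 were listed at 0. It was the only 1 of 40 groups of values (10 members in 4 groups) whose end value lay far from the others by Dixon's 95% criterion, and chance alone marks about 1 group in 20. The value is far below the 32.2 FPKM of the lowest C13* shCON library.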

How the results depend on the processing

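The number of members called stayed at 9 or 10 after knockdown and between 8 and 10 in A2780 OlaR under all alternatives run. In 12 alternatives after knockdown, 8 of 10 members kept their direction and their side of the threshold, and in 11 alternatives in A2780 OlaR 7 of 10 did. The exceptions after knockdown were CDK4, not called with quantile normalization or in libraries 1 to 3, and CDKN2A, not called in libraries 4 to 8. In A2780 OlaR CCND3 changed sign in libraries 1 to 3 (-0.14), CDK4 changed sign there (-0.14) and after correction for GC content and transcript length (-0.014), and CCNE1 lost its call with quantile normalization. CCND3 and CDK4 were called with quantile normalization (0.16 and 0.11) and in libraries 4 to 8 (0.24 and 0.23). The cause was not tested. With the replicate block, 9885 genes were called after knockdown (10166 without) and 10960 in A2780 OlaR (11190 without), and the block changed no member's call. The replicate numbers share no stated batch, and 1 of 7 and 0 of 8 libraries were most like their own replicate number in the other group. The median log2 change of all genes in A2780 OlaR was -0.18 with a common sum and -0.03 with quantile normalization. Depth in reads is unknown, so no floor can be given for values listed at 0, and transcripts of CDKN2A cannot be separated.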
